A study of Mus musculus and Rattus norvegicus with 96 samples.

Results

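The expression of 10 glutathione S-transferase (GST) genes was examined in mouse liver after exposure to phenobarbital (PB), a barbiturate and liver enzyme inducer. The genes were 5 of the mu class (Gstm1, Gstm2, Gstm3, Gstm4 and Gstm6), 3 of the alpha class (Gsta2, Gsta3 and Gsta4) and 2 of the theta class (Gstt1 and Gstt3). They were listed by name, with earlier results of these data known. All 10 were among the 24543 genes of the liver count table and among the 13370 that passed the filter on low counts. Male B6C3F1 mice, 10 to 11 weeks old, received 600 ppm PB in their drinking water for 7 days, and the controls (Con) received water alone. With 6 mice per treatment and 4 preparations of each liver, there were 48 total RNA-sequencing libraries in 8 groups of 6. The preparations were fresh freezing (FR), direct fixation for 18 to 24 h in 10% neutral buffered formalin (FFPE), freezing followed by the same formalin fixation (FR > FFPE), and freezing followed by 70% ethanol (FR > OH). The last 3 were embedded in paraffin. Both the frozen and the directly fixed samples held pieces of several liver lobes. The frozen tissue was later divided into the FR, FR > FFPE and FR > OH portions. The data describe 1 hybrid strain, males, 1 dose and 1 time.

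Cytosolic GSTs join the tripeptide glutathione to electrophilic compounds, which makes these compounds more soluble and marks them for export from the cell. The mu, alpha and theta classes differ in sequence and in the substrates they prefer, and hepatocytes are among the cells richest in these enzymes. In hepatocytes PB activates the constitutive androstane receptor (CAR, encoded by Nr1i3), whose best known target in the mouse is the cytochrome P450 gene Cyp2b10, and several GST genes are known targets of CAR or of Nrf2, a transcription factor of the response to oxidative and electrophilic stress.

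The 5 mu-class genes lie side by side on chromosome 3 of GRCm38 and are closely related, which bears on how reads are shared among them. The first 60 coding bases of each are shown because these show how alike the genes are at the start of the protein. Capitals mark bases that differ from Gstm1 at the same place. The sequences are of GENCODE M21 transcripts, and Gstm1, Gstm2, Gstm3, Gstm4 and Gstm6 all encode 218 amino acids in 8 exons.
Gstm1: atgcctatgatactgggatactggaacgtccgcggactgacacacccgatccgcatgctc
Gstm2: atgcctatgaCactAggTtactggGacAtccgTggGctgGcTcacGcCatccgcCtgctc
Gstm3: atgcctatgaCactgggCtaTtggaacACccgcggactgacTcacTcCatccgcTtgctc
Gstm4: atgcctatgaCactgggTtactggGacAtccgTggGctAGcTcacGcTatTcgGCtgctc
Gstm6: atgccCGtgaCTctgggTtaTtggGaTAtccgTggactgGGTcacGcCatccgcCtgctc
Gstm3 differed from Gstm1 at 9 of these 60 bases, Gstm2 at 12, Gstm4 at 14 and Gstm6 at 16. Over the whole coding sequence the 10 pairs of mu-class members were 79.1% to 89.5% identical, and Gstm1 and Gstm3 were the closest pair. The 3 alpha-class pairs had a median identity of 66.9%, Gstt1 and Gstt3 were 75.8% identical, and the 31 pairs from different classes were 54.4% to 60.6% identical.

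The alpha-class gene Gsta2 has a near copy, Gsta1, which is not among the 10 genes. The first 60 coding bases of both are shown because they do not differ at any place.
Gsta2: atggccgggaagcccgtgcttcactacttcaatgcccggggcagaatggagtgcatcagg
Gsta1: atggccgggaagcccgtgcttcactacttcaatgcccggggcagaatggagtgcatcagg
Reads were 50 bases long, and stretches of 50 bases that occur in several genes show where dividing reads may have been needed. They were searched among GENCODE M21 transcripts, while the authors counted over RefSeq. Of all such stretches, 64.2% of those of Gsta2 were also found in a transcript of another gene (44.8% in Gsta1 and 44.5% in Gm10639), against 28.8% for Gstm3, 26.0% for Gstt3, 23.1% for Gstm1, 11.8% for Gstm6 and 9.36% for Gstm2. For Gstt3 the shared stretches were all in a readthrough transcript, and for Gstm1 they were foremost in Gstm2-ps1 (17.3%) and Gstm3 (10%). For Gstm3 they were foremost in Gm8834 (16.0%) and Gstm2-ps1 (11.01%), and 6.88% of the stretches of Gstm6 were also found in Gstm3. Gstm4, Gsta3, Gsta4 and Gstt1 shared none. The counts of Gsta4 and Gstt1 were all whole, but only 66.7% of those of Gstm4 and 6.25% of those of Gsta3 were. The search therefore does not show which counts depended on divided reads. Among the other members, 2.08% of the counts of Gstm3 were whole, 8.33% of Gstm1, 12.5% of Gstm6 and 20.8% of Gsta2. For Gstt3 and Gstm2 these shares were 50% and 85.4%. Gsta2 had the largest part of shared stretches of the 10, and Gstm3 the smallest share of whole counts.

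The 250 bases before the transcription start of 3 genes are given next, from RefSeq on GRCm38.p6: Gstm3, which had the largest fold change with PB in each preparation, Gstm1, which had the highest level with PB, and Gsta3, which had the smallest fold change. Each sequence is on the strand of its gene, and capitals mark the only motif match.
Gstm3, chr3:107969175-107969424, minus strand: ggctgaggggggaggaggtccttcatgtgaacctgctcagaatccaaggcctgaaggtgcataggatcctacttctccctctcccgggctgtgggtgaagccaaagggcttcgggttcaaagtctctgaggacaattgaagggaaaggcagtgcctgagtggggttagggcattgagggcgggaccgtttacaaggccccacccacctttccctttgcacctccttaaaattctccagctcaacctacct
Gstm1, chr3:108017974-108018223, minus strand: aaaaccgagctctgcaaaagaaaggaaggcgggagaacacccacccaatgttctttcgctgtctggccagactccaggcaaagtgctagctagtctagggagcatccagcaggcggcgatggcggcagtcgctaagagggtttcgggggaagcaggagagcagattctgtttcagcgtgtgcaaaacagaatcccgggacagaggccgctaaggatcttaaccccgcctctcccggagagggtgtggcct
Gsta3, chr1:21240335-21240584, plus strand: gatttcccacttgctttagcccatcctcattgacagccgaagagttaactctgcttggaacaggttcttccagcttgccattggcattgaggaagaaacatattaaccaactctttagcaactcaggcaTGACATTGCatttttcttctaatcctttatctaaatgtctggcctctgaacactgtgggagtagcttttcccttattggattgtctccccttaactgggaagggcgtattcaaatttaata
Promoters of 9 members were in the RefSeq table, and Gsta4 had no entry. For Gstt1 the start used lay 853 bases from the gene start given with the counts. For the others this distance was at most 16 bases. Gstm1, Gstm4, Gstm6 and Gstt3 had 2 or 3 start sites, and only the nearest to that gene start was searched. The core of the antioxidant response element, the site that Nrf2 binds (TGACNNNGC, either strand), occurred in 1 of the 9, Gsta3, from 121 to 113 bases before the start, and in 10.2% of 32851 mouse promoters of this length. The nuclear receptor half-site AGGTCA, also searched on both strands, occurred in none of the 9 and in 14.0% of all promoters. The DR4 element, 2 such half-sites in direct repeat with 4 free bases between them and the third base of each left free, occurred in none and in 0.103%. The TATA box (TATAAA) occurred in Gsta2 alone, on the strand opposite to the gene and 246 to 241 bases before the start, and in 12.4% of all promoters.

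Total counts per library ranged from 4952797 to 13702672 in the liver. Cyp2b10 was at 0.340 ± 0.272 counts per 1000000 (CPM) in FR Con and at 1890 ± 295 CPM in FR PB (SD, n = 6). CPM was scaled to the total count of each library. Hepatocyte markers (Alb, Apoa1, Ttr, Serpina1a and Tat) summed to 40224 to 86374 CPM in the FR libraries, and no marker was at 0 in a whole group. Tat, an enzyme of tyrosine breakdown, was lower with PB in FR (log2 fold change -0.55, adjusted p = 0.0262). Of 7 pericentral hepatocyte markers Cyp1a2 (1.61) and Lect2 (0.77) were higher and Glul (-0.47) and Slc1a2 (-0.72) lower with PB in FR, and of 7 periportal markers Pck1 (-1.36) was lower. None of the markers of cholangiocytes, Kupffer cells, sinusoidal endothelium, stellate cells or blood passed the threshold in FR. The part of these changes in the GST results was not tested, and in bulk liver fewer cells of a type and less RNA per cell cannot be told apart.

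**Figure D1:**
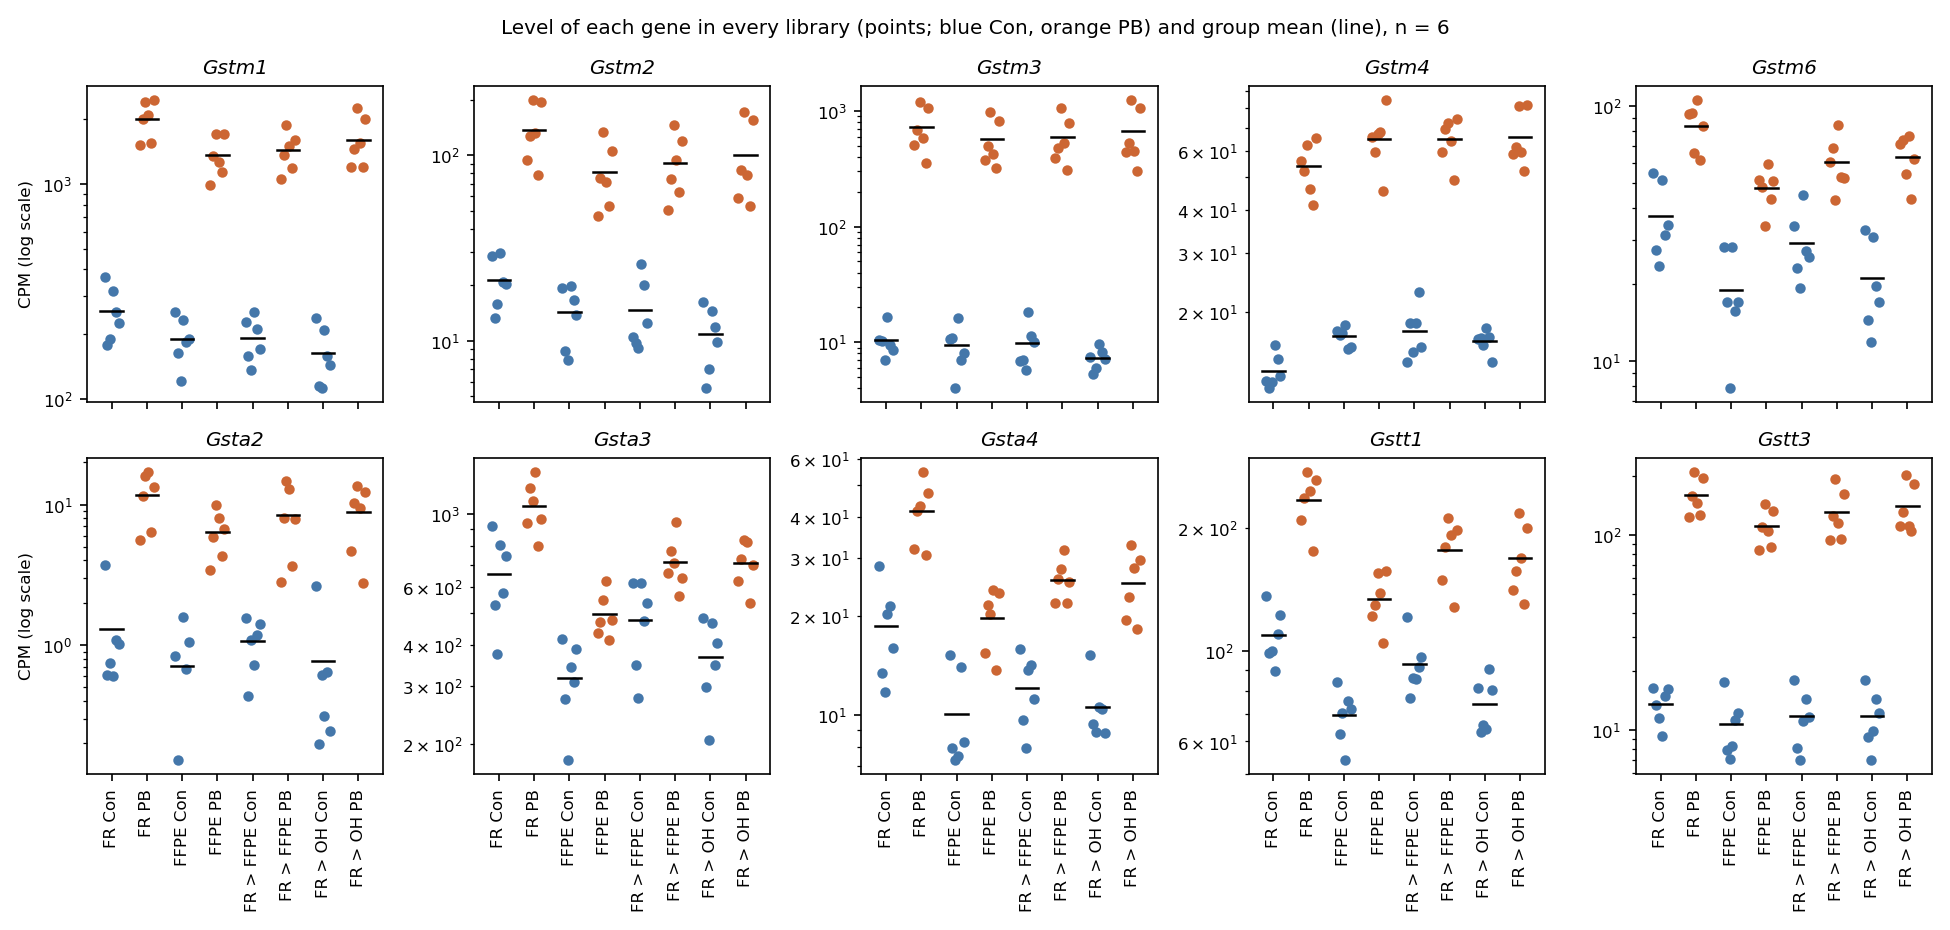
Level of each of the 10 GST genes in the 48 liver libraries, in CPM on a log axis, with 1 point per library and a line at the mean of each group of 6, for Con (blue) and PB (orange) in the 4 preparations. The 1 library with no Gsta2 count, in FFPE Con, is not drawn. PB libraries sit above Con libraries in every preparation for Gstm1, Gstm2, Gstm3, Gstm4, Gsta2, Gstt1 and Gstt3, while Gsta3 overlaps in FR, FFPE and FR > FFPE.

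The 10 listed GST genes were higher with PB in fresh-frozen liver, by amounts that differed widely between members. In FR, 9 of the 10 genes were differentially expressed genes (DEGs), which had to change at least 2-fold with an adjusted p under 0.05, and all 9 were higher with PB. Over all 13370 genes, 1.74% were DEGs that were higher with PB. Gsta3 was the exception, with an adjusted p of 0.0225 and a 1.60-fold change, so that all 10 passed by adjusted p alone, as did 5.86% of all genes. The median log2 fold change was 2.35 over the 10 members and 0.0037 over all genes tested. In 9 members every PB library lay above every Con library, which held for 4.2% of all genes, and only the groups of Gsta3 overlapped. The 10 were chosen with earlier results of these data known, so setting them beside all genes is a description and not a test. Of 14 other glutathione transferases tested in FR, 1 was a DEG. Adjusted p values are from the quasi-likelihood test of edgeR with Benjamini-Hochberg adjustment over all genes tested, unless another test is named. This fit treats the 48 libraries of 12 mice as separate, so its p values rest on fewer independent animals than libraries.

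Gstm3 had the largest response of the mu class. In FR its level was 7.01, 9.93 and 16.4 CPM (lowest, median and highest) in the 6 Con livers and 354, 636 and 1186 CPM in the 6 PB livers. The groups lay far apart. The log2 fold change was 6.14 ± 0.33 (SE), or 70.5-fold (adjusted p = 1.8e-16), which ranked 5 among the increases of all genes. Gstm1, which encodes the main mu-class subunit of mouse liver, stood at 178, 240 and 369 CPM in Con and at 1504, 2039 and 2435 CPM in PB. These groups did not overlap either, and the log2 fold change was 2.96 ± 0.20 (adjusted p = 6.9e-15). Its mean rose from 256 ± 74.5 to 1992 ± 402 CPM (SD, n = 6), a larger gain in CPM than that of any other member.

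The other 3 mu-class genes rose by less. Gstm2 was at 13.2, 20.4 and 29.8 CPM in FR Con and at 78.5, 130 and 198 CPM in FR PB. Its log2 fold change of 2.69 ± 0.30 (adjusted p = 1.6e-08) was close to that of Gstm1. Gstm4 was at 11.97, 12.7 and 16.0 CPM in Con and at 41.6, 54.1 and 65.2 CPM in PB, with the narrowest spread of the class in both groups. Its log2 fold change was 2.01 ± 0.12 (adjusted p = 4.9e-17). Gstm6 was at 23.6, 32.7 and 54.8 CPM in Con and at 61.4, 88.2 and 105 CPM in PB, so that the highest Con liver came close to the lowest PB liver. Its log2 fold change, 1.18 ± 0.23 (adjusted p = 3.2e-04), was the smallest of the mu class.

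The alpha class held both the lowest and, in controls, the highest level of the 10 genes. Gsta3, a subunit abundant in untreated mouse liver and known for detoxifying the reactive epoxide of aflatoxin, was at 376, 661 and 920 CPM in FR Con and at 801, 1029 and 1338 CPM in FR PB. The groups overlapped, and the log2 fold change was 0.68 ± 0.20 (adjusted p = 0.0225). Gsta4, which acts on 4-hydroxynonenal and other products of lipid peroxidation, was at 11.8, 18.2 and 28.5 CPM in Con and at 30.7, 42.6 and 54.8 CPM in PB. Its groups did not overlap, and its log2 fold change was 1.16 ± 0.19 (adjusted p = 1.5e-05). Gsta2 was at 0.599, 0.881 and 3.70 CPM in Con and at 5.62, 12.4 and 16.9 CPM in PB. The Con values rested on few reads, with 0 to 47.3 counts per library over the 4 preparations, and the log2 fold change of 3.16 ± 0.46 (adjusted p = 1.2e-06) became 3.83 without mouse 21C, the highest control. The same leave-out moved Gsta2 in FR > OH from 3.504 to 4.45.

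The 2 theta-class genes are neighbours on chromosome 10 but differed in their response. Gstt3 was at 9.33, 14.2 and 16.5 CPM in FR Con and at 124, 152 and 210 CPM in FR PB. This was a log2 fold change of 3.55 ± 0.22, or 11.7-fold (adjusted p = 1.8e-16), second among the members to Gstm3, although without mouse 21C the log2 fold change of Gsta2 (3.83) was larger. Gstt1, known for acting on small halogenated compounds such as dichloromethane, was at 89.4, 105 and 136 CPM in Con and at 176, 242 and 274 CPM in PB. Its groups did not overlap either, and its log2 fold change was 1.10 ± 0.13 (adjusted p = 2.9e-08).

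**Figure D2:**
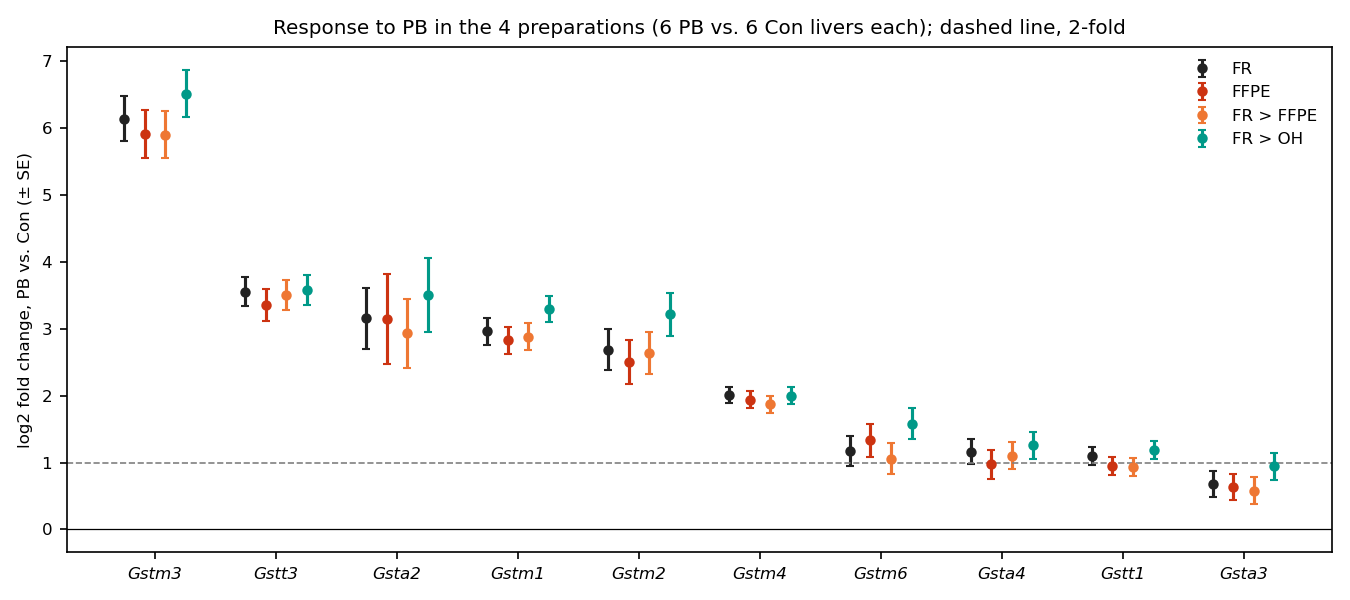
Log2 fold change of PB over Con for each of the 10 GST genes in FR, FFPE, FR > FFPE and FR > OH, with bars of 1 SE from the edgeR fit and a dashed line at the 2-fold threshold. Gstm3 lies between 5.90 and 6.51 in all 4 preparations, and Gsta3 lies below the line in all 4.

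The response reordered the members within the liver. Levels of different genes were compared as CPM per kilobase of transcript. In FR Con, Gsta3 made up 53.1% of the summed CPM per kilobase of the 10 genes, Gstm1 23.3%, Gstt1 12.4% and Gstm3 0.93%. In FR PB, Gstm1 made up 45.1%, Gsta3 21.1%, Gstm3 16.3% and Gstt1 6.59%. Gsta3 exceeded Gstm1 in 6 of 6 FR Con livers, although the ranges of the 2 genes overlapped across livers. With PB the order was the reverse, and the lowest level of Gstm1 (1167 CPM per kilobase) was above the highest of Gsta3 (918). Below them, Gsta3 was above Gstm3 in only 4 of 6 FR PB livers, with ranges that overlapped. Among controls, Gstm2 and Gsta4, Gstm3 and Gstm4, and Gstm4 and Gstt3 were each in the stated order in 3 of 6 livers, so these neighbours did not differ beyond their spread. Gsta2 was last in both groups, with no overlap with the member above it.

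**Figure D3:**
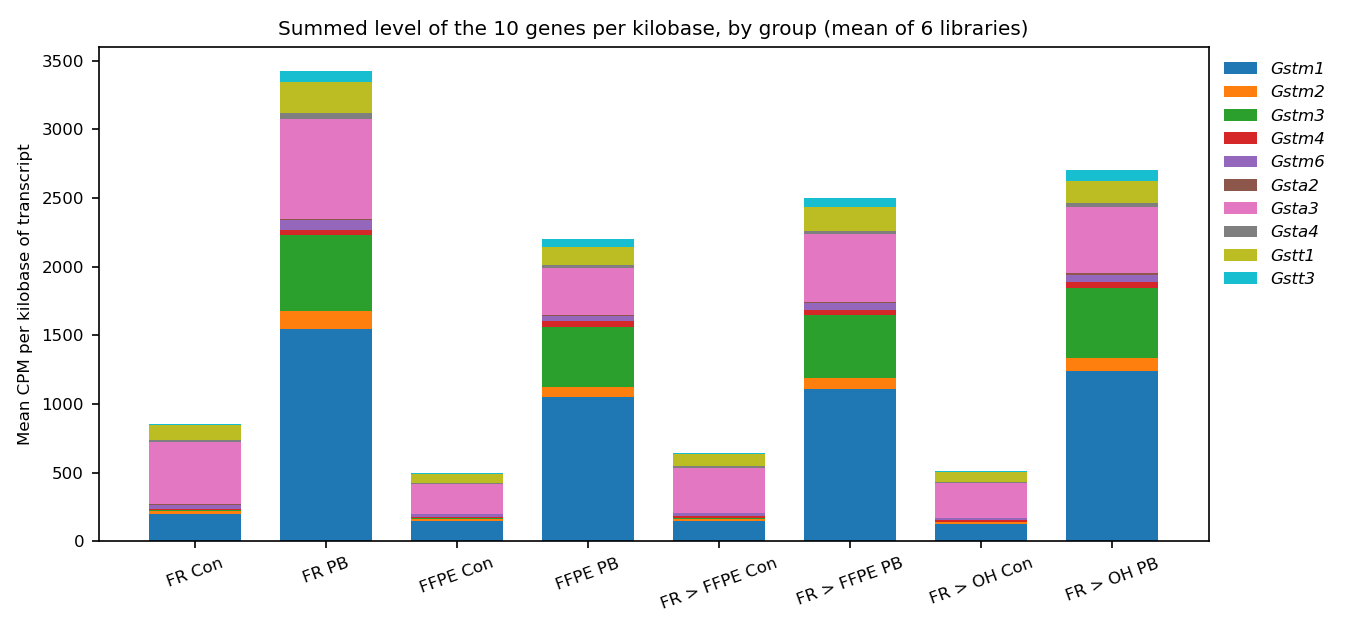
Stacked bars of the mean CPM per kilobase of transcript of the 10 GST genes in the 8 groups of preparation and treatment, each bar a mean over 6 livers. The bars reach 852 in FR Con and 3428 in FR PB. Gsta3 is the largest segment in all 4 Con groups and Gstm1 in all 4 PB groups.

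The 10 genes together took 1140 ± 305 CPM in FR Con and 4502 ± 936 CPM in FR PB (SD, n = 6), a ratio of 3.95. The sum went from 661 ± 152 to 2887 ± 671 CPM in FFPE (ratio 4.37), from 860 ± 212 to 3295 ± 722 CPM in FR > FFPE (3.83) and from 684 ± 176 to 3554 ± 1029 CPM in FR > OH (5.19). The highest Con liver and the lowest PB liver were at 1579 and 3216 CPM in FR, and at 912 and 2437 CPM in FR > OH, so the sums did not overlap.

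The same livers showed the increase in each fixed or embedded preparation. In FFPE, 7 members were DEGs and all 10 had an adjusted p under 0.05, as 4.64% of all genes did in this direction. The members below the 2-fold threshold were Gsta3 (log2 fold change 0.64), Gsta4 (0.97) and Gstt1 (0.95). In FR > FFPE, 8 were DEGs, without Gstt1 (0.93) and Gsta3 (0.58, adjusted p = 0.0666), which was the only member and preparation that missed the adjusted p (6.24% of all genes passed it). In FR > OH, 9 were DEGs, without Gsta3 (0.94), and all 10 passed by adjusted p, against 8.43% of all genes. DEGs that were higher with PB made up 1.65%, 1.71% and 2.12% of all genes in these preparations, and the members' median log2 fold change was 2.22, 2.25 and 2.61. Gstm3 changed 60.3-fold, 59.8-fold and 91.5-fold in the same order. PB and Con livers did not overlap for 8, 8 and 10 members, against 2.12%, 3.19% and 4.26% of all genes. The overlaps were in Gsta3 and Gsta4 in FFPE and in Gsta3 and Gstm6 in FR > FFPE.

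Several of these calls sat at the 2-fold threshold, where 1 mouse decided them. Without mouse 21C, a control, Gsta4 (1.13) and Gstt1 (1.01) became DEGs in FFPE, as did Gstt1 (1.02) in FR > FFPE, and Gsta3 (1.04) became one in FR > OH. Leaving out mouse 75C did the same, with values of 1.06, 1.01, 1.01 and 1.01. Gsta4 in FFPE also became a DEG without 18B (1.03) or 8D (1.09), and Gsta3 in FR > OH without 8C (1.02). Gstm6 in FR > FFPE (1.06) was no longer a DEG without 20D (0.94) or 8A (0.96). Sample titles carry an L number whose meaning they do not give, and it differed between Con and PB in part of the groups. Among libraries with one L number, 8 members were DEGs in FR (6 Con against 2 PB livers, Gsta4 at 0.99, adjusted p = 0.0631), 8 in FFPE (6 against 4) and 9 in FR > OH (3 against 6). DEGs that were higher with PB made up 1%, 0.978% and 0.919% of all genes in these subsets. In FR > FFPE the L number and the treatment cannot be told apart.

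Whether the response differed between preparations was tested directly, as the PB effect in each preparation minus that in FR. The difference ranged from -0.23 to 0.16 on the log2 scale over the 10 members for FFPE, from -0.24 to -0.05 for FR > FFPE and from -0.01 to 0.53 for FR > OH. No member passed the threshold in any of the 3, and none had an unadjusted p under 0.05. Over all genes, 0% were called by edgeR in each of the 3 tests, and 3.46%, 2.15% and 2.28% had an unadjusted p under 0.05. The 95% intervals were wide, from -0.71 to 0.43 for Gstm1 and from -1.65 to 1.62 for Gsta2 in FFPE. These values do not show that the responses were equal.

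The 4 preparations came from the same livers, and with the mouse as a block the intervals narrowed. In FR > OH the response of Gstm1 then exceeded that in FR by 0.32 ± 0.07 (unadjusted p = 6.9e-05, adjusted p = 0.0315, edgeR). It was the only member with an adjusted p under 0.05 in a blocked test, where 0.277% of all genes were called by adjusted p alone in FR > OH, and its difference stayed below 2-fold. The call did not hold in all leave-outs: it was kept in 6 of 12, with adjusted p values from 0.0125 to 0.212. Gstm2 (0.49, adjusted p = 0.115), Gstm6 (0.42, adjusted p = 0.0598), Gsta3 (0.27, adjusted p = 0.0767) and Gstm3 (0.32, adjusted p = 0.522) pointed the same way without passing (edgeR). The summed pericentral markers also rose more with PB in FR > OH than in FR. The sum was 3350 to 5504 CPM in FR > OH Con and 5714 to 6673 CPM in FR > OH PB, against 4511 to 7011 and 5519 to 7360 CPM in FR. Most of it was Cyp2e1, with means of 2579 and 4032 CPM in FR > OH Con and PB. Cyp1a2 (286 and 1196 CPM) was itself a DEG with PB in FR (1.61) and in FR > OH (2.07). Glul changed by -0.47 with PB in FR and by 0.13 in FR > OH. The part of these markers in the GST difference was not tested. In FFPE and FR > FFPE no member passed with the block, with a smallest adjusted p of 0.571 and 0.472, against 0.00748% and 0% of all genes called by adjusted p. Those 2 values were of Gstt1, at -0.15 in FFPE and -0.17 in FR > FFPE. In FFPE, Gstm1 was also at -0.15 (adjusted p = 0.581) and Gstm6 at 0.16 (adjusted p = 0.736, edgeR).

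More members were lower than higher relative to FR in each of the other preparations. Relative to FR and averaged over Con and PB, 1 member was a DEG in FFPE (Gsta3, log2 fold change -1.07 ± 0.14, adjusted p = 6.5e-09), and none in FR > FFPE or FR > OH. DEGs made up 14.9%, 6.52% and 4.08% of all genes in these comparisons. By adjusted p alone 8 members were lower and 1 higher in FFPE, 6 and 1 in FR > FFPE, and 6 and 1 in FR > OH, where 17.3%, 8.92% and 13.3% of all genes were lower and 53%, 56.5% and 41.7% higher. With the mouse as a block 9, 8 and 9 members were lower and 1 higher each time, and of all genes 19.9%, 11.6% and 17.2% were lower and 56.6%, 62.2% and 47.9% higher. The members' median was -0.70, -0.39 and -0.54, while the median of all genes was 0.32, 0.34 and 0.18 in the opposite direction. The sum of the hepatocyte markers moved too, with a mean of 68823 CPM in frozen and 30570 CPM in directly fixed Con livers. Most of this sum was Alb, at 52030 and 21651 CPM. Apoa1 (7345 and 3011 CPM) and Ttr (5032 and 2055 CPM) were also lower. Serpina1a was at 3557 and 2979 CPM and Tat at 859 and 874 CPM, so the markers did not move alike. Their part was not tested.

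Gsta3 fell most in FFPE and in all 12 mice, from a mean of 857 CPM in FR to 407 CPM. Gsta4 followed (-0.98 ± 0.14), from 30.1 to 14.9 CPM, then Gstm6 (-0.89) and Gsta2 (-0.87). Gstm3 had the smallest negative value in FFPE (-0.24 ± 0.25, adjusted p = 0.380) and in FR > FFPE (-0.18), while in FR > OH it was at -0.32 and Gstt3 at -0.20, and none of the 3 Gstm3 values passed. With the mouse as a block the adjusted p of Gstm3 was 0.00278, 0.0171 and 2.9e-05 in these preparations (edgeR). Gstm4 was the single member that was higher, by 0.31 ± 0.09 (FFPE), 0.33 ± 0.09 (FR > FFPE) and 0.29 ± 0.09 (FR > OH), in 12 of 12 mice each time. This lay within 0.11 of the median of all genes, and its sign was negative when libraries were scaled by total reads, at -0.65, -0.0488 and -0.0334.

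The choice of scaling set how many members counted as lower. Total reads were not counted here but inferred as the divisor of the deposited CPM. By this divisor a mean of 48.5% of reads fell on genes in FR and 25.1% in FFPE, so scaling by it lowers FFPE values. The median of all genes in FFPE was 0.32 with the total count over genes, 0.04 with trimmed mean of M-values (TMM) scaling and -0.63 with total reads. The number of members that were DEGs in FFPE was 1, 5 and 9 under these scalings, and DEGs lower than FR made up 1.93%, 5% and 26.7% of all genes. Relative to the median of all genes, Gsta3 was at -1.39 with the total count, and the members other than Gstm4 were at -0.57 or below. The PB fold changes within a preparation moved little with the scaling, and no member changed direction.

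**Figure D4:**
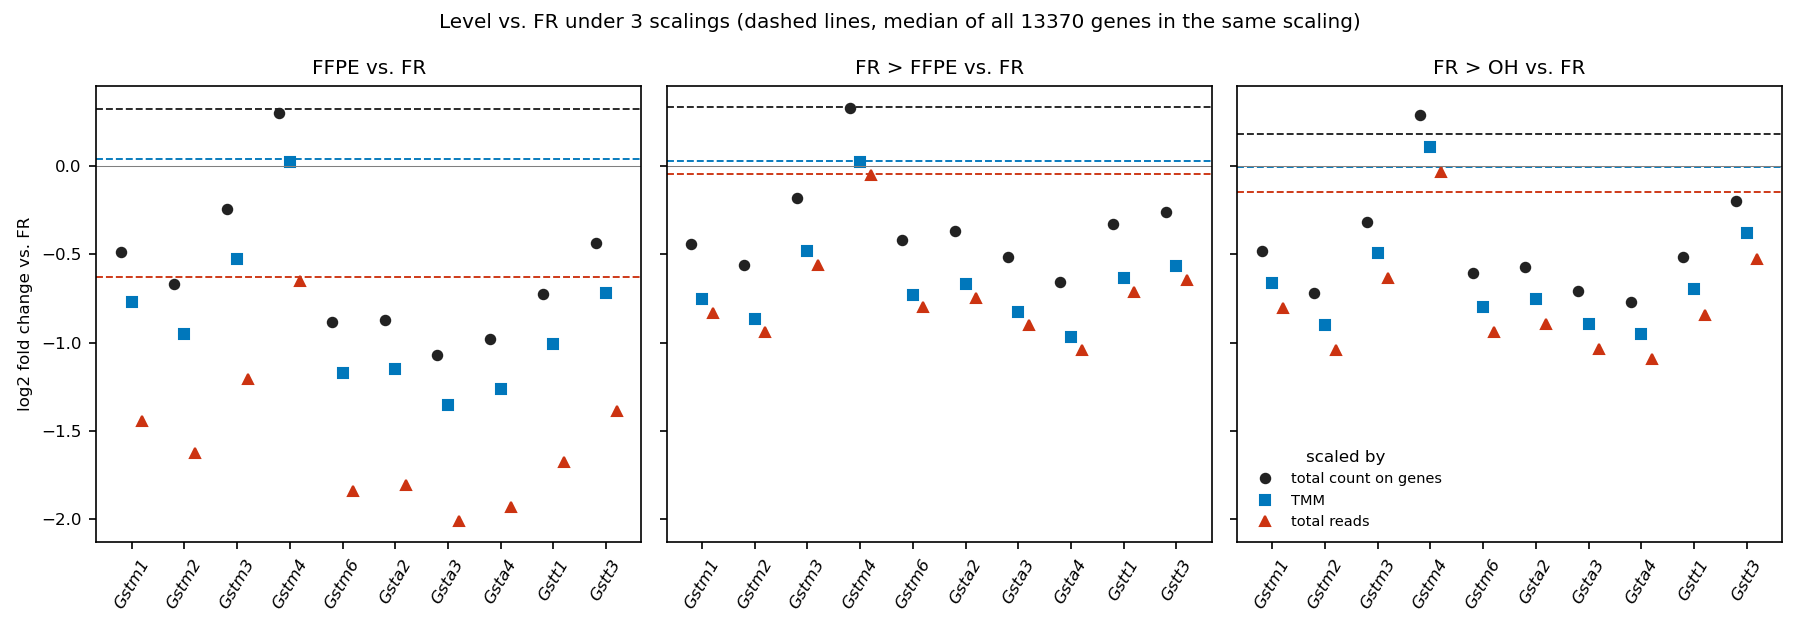
Log2 difference of each GST gene between each preparation and FR, averaged over Con and PB, under 3 ways of scaling libraries (circles, total count on genes; squares, TMM; triangles, total reads). Dashed lines mark the median of all 13370 genes under the same scaling. In FFPE, Gsta3 is the lowest member under all 3 scalings and Gstm4 lies at the median of all genes.

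Livers of the same treatment differed from one another in a way that the 4 preparations shared. For each gene the SD between mice was compared with the SD between the 4 preparations of one mouse. Group means were removed on the log2(CPM + 0.1) scale, and the first SD is of mouse means over 4 libraries. Among PB mice the first was 2.12 to 5.58 times the second in all 10 genes. Gstm3 varied most relative to its preparations, with an SD of 0.68 between mice and 0.12 within a mouse. Mouse 20B had the highest Gstm3 level in 4 of 4 preparations (1186, 983, 1071 and 1237 CPM, in the order FR, FFPE, FR > FFPE, FR > OH) and mouse 75C the lowest in 4 of 4 (354, 318, 310 and 303 CPM). Their mean levels differed 3.47-fold, while the 6 PB livers of Cyp2b10 spanned 1.57-fold.

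The ranking of mice was not the same for each gene. Mouse 20B was also highest for Gstm2 and Gstt3 in 4 of 4 preparations and for Gstm1, Gsta2 and Gstt1 in 3. Mouse 20D was highest for Gstm6 in 4, and for Gsta3 and Gsta4 in 3. Mouse 80B was highest for Gstm4 in 4 preparations and for Cyp2b10 in 4. Mouse 75C was lowest in 4 preparations for Gstm3, Gstm4, Gsta3 and Gstt1, and 18B for Gstm1. Among controls, 21C was highest for Gsta4 and Gstt3 in 4 preparations and 8A was lowest for Gsta3 and Gstm6 in 4. For Gstm4 and Gsta2 in controls, the SD between mice did not exceed that within a mouse (ratios 0.78 and 0.89). The first is an SD of means over 4 libraries and the second of single libraries. A ratio below 1 can thus arise with differences between mice, and these ratios do not show that the mice were alike.

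**Figure D5:**
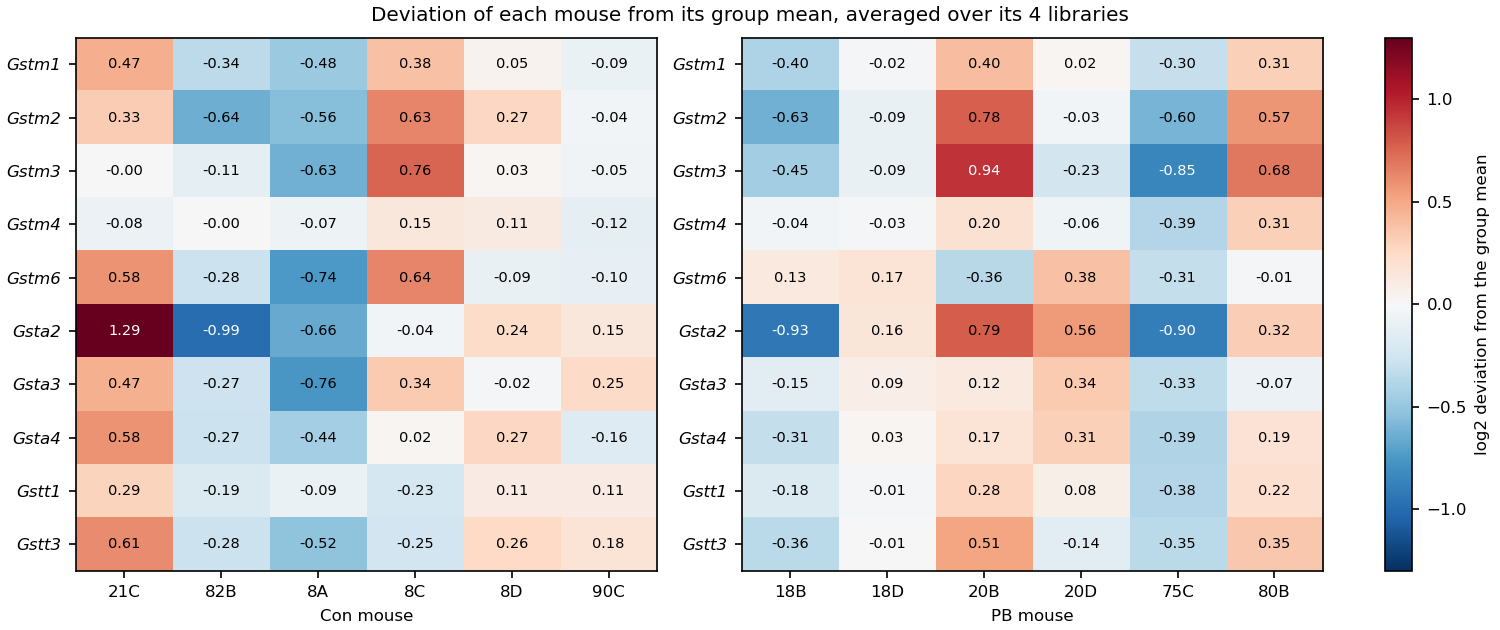
Colour map of the deviation of each Con mouse (left) and PB mouse (right) from its group mean for the 10 GST genes, on the log2(CPM + 0.1) scale, as the mean over its 4 libraries. Red is above and blue below the mean. For Gstm3, PB mouse 20B is at 0.94 and 75C at -0.85.

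Neighbouring GST genes did not all pass the test. The stretch of chromosome 3 from Gstm5 to Gstm4 holds 7 mu-class genes, in the order Gstm5, Gstm7, Gstm6, Gstm3, Gstm2, Gstm1 and Gstm4 along GRCm38, and the 5 members span 106 kb of it. Gstm6 is at chr3:107938848-107943749, Gstm3 at chr3:107963696-107969174, Gstm2 at chr3:107981702-107986436, Gstm1 at chr3:108012250-108017973 and Gstm4 at chr3:108040408-108044859, all on the minus strand. Gstm7 had a log2 fold change of 0.12 (adjusted p = 0.597) and Gstm5 of 0.48 (adjusted p = 0.0971) in FR, so the 2 genes at one end did not pass in FR while the adjoining 5 did. In FR > OH, Gstm5 passed by adjusted p below 2-fold (0.65, adjusted p = 0.0230). On chromosome 10, Gstt3 (chr10:75774117-75781422) and Gstt1 (chr10:75783813-75798584) lie beside Gstt2, which had 0.87 (adjusted p = 0.0714), and Gstt4, which was near 0 CPM. Gsta3 is at chr1:21240585-21265575, and Gsta4 (chr9:78191966-78209349) and Gsta2 (chr9:78331020-78347145) share a stretch of chromosome 9.

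Among 21 further glutathione transferases, 17 were in the table and 14 were tested. Gsta1, an inducible alpha-class gene, was the only DEG in FR, from 0.195 ± 0.377 to 17.6 ± 17.9 CPM (log2 fold change 6.36 ± 1.41, adjusted p = 8.7e-06). Its PB livers ran from 2.76 to 44.9 CPM, and over all preparations its highest and lowest PB mice differed 15.5-fold, against 3.47-fold for Gstm3. Of its stretches of 50 bases, 89.7% are found in other genes, with 82.9% in Gm3776 and 44.6% in Gsta2, so its count is uncertain. The 2 others that passed by adjusted p, both below 2-fold, were Mgst1, the abundant microsomal enzyme (0.50), and Gstp2 of the pi class (0.43). Gstk1 (-0.097), Gstcd (-0.027) and Hpgds (0.92, adjusted p = 0.0909) did not pass. The median of the 14 was 0.41, and 1 was a DEG in each of the other preparations as well.

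Genes that make, recycle and move glutathione were examined next. Of 10 synthesis and recycling genes tested, none was a DEG in FR. By adjusted p, Cth (0.53), which makes cysteine, Gsr (0.33), which reduces oxidised glutathione, and Gclm (0.23), a subunit of the first enzyme of synthesis, were higher, and Cbs (-0.46) and Oplah (-0.34) were lower. Chac1 (-0.68, adjusted p = 0.454), which degrades glutathione, did not pass. Of 10 conjugate breakdown and export genes, Abcc3, an export pump of the basolateral membrane, was a DEG (43.1 ± 32.3 to 412 ± 55.05 CPM, 3.26 ± 0.36). Abcc2, the pump of the bile canaliculus, was higher below 2-fold (0.72), and Abcc6 (-0.070) and Ggt5 (-0.12) did not pass. The medians of these lists were 0.12 and 0.26, against 0.0037 over all genes.

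Of 10 peroxidase and glyoxalase genes, 5 were higher by adjusted p in FR. Of these, Gpx7 was a DEG at low levels (0.755 to 2.72 CPM, 1.84 ± 0.52), and the glutaredoxin gene Glrx (0.62), Gpx4 (0.59), Prdx6 (0.57) and Gpx1 (0.36) were below 2-fold. Gpx3 (0.72), Glo1 (0.32) and Hagh (8.6e-04) did not pass. Of 10 Nrf2 targets outside these lists, 4 were DEGs: the quinone reductase gene Nqo1 (1.19), the sulfiredoxin gene Srxn1 (1.06), the microsomal epoxide hydrolase gene Ephx1 (1.82), which is also a known target of CAR, and Ugdh (1.13), which supplies the substrate for glucuronidation. The well known Nrf2 targets Hmox1 (0.094) and Osgin1 (0.021) did not pass. The median of this list was 0.43 in FR, and 2, 4 and 3 of its genes were DEGs in the FFPE, FR > FFPE and FR > OH preparations. Of the receptors, Nr1i2, encoding the pregnane X receptor, was higher (0.49), Rxra, encoding the partner of both receptors, was lower (-0.36), and Nr1i3 was at 23.0 and 22.2 CPM (-0.050, adjusted p = 0.943).

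The genes most like each member were found from the mean levels of the 8 groups, as the smallest root mean square difference of centred log2(CPM + 1) values among 12300 genes. These are descriptions over 8 groups that share their livers. Members were nearest to each other in some cases: Gstm2 was the nearest to Gstm1 (0.17), and Gstt1 to Gsta4 (0.12). The nearest to Gstm3 were Cyp3a11 (0.37) and Cyp2c53-ps (0.39), to Gstt3 Cyp2a5 (0.15), and to Gsta2 the oestrogen sulfotransferase gene Sult1e1 (0.13). Orm3 was nearest to Gstm2 (0.14), Colgalt2 to Gstm4 (0.096), Cyb5a to Gstm6 (0.092), Pcna to Gsta3 (0.054) and Prelid2 to Gstt1 (0.060).

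A targeted panel (TempO-Seq) was run on AML12 cells, a mouse hepatocyte line, after 10 min with 0.006%, 0.03% or 0.1% neutral buffered formalin or with vehicle, with 3 cultures each. Total counts were 444288 to 2325990 per library. All 10 genes had a row, and 4 had counts, while 6, among them Gstm1 and Gstm3, were at 0 in all 12 libraries. Only 2749 of the 24540 rows held counts, and for a row at 0 the lack of a probe and the lack of expression cannot be told apart. At 0.1%, Gstt3 had 32, 14 and 9 counts against 4, 49 and 38 in vehicle. In CPM these were 13.8, 10.3 and 5.80 against 7.48, 26.5 and 18.7. The log2 fold change was -1.09 ± 0.44 (adjusted p = 0.0893 by edgeR). Gsta2 had 11, 3 and 4 counts against 3, 6 and 22 (-1.20 ± 0.53, adjusted p = 0.123 by edgeR). In CPM these were 4.93, 2.20 and 2.58 against 5.61, 3.16 and 10.7. Neither these nor Gsta3 (-0.25) and Gstm2 (-0.13) passed, and the groups overlapped in counts and in CPM. DEGs made up 4.84% of the 1570 genes tested there, and 32.4% had an unadjusted p under 0.05. The values of the 4 genes moved when single cultures were left out. Gstt3 was at -0.73 without vehicle culture 90 (adjusted p = 0.376 by edgeR) and at -1.48 without 0.1% culture 93 (adjusted p = 0.0484 by edgeR), where it was a DEG. Gsta2 was at -0.42 without vehicle culture 94 (adjusted p = 0.760 by edgeR) and at -1.68 without culture 93. Gsta3 ran from -0.82 without culture 93 to 0.010 without culture 94, and Gstm2 from -0.45 to 0.095 in the same leave-outs, so the direction of both turned.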

How the data were processed

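Total RNA was sequenced from 48 liver libraries (paired reads of 50 bases after ribosomal RNA depletion). Per the labels and the study's methods, the authors aligned reads with STAR 2.5.3a to GRCm38 (mm10) and used expectation maximization in Partek Flow to divide them among the transcripts of RefSeq. The deposited table therefore holds estimated counts per gene, of which 92.0% were whole. A second deposited table holds log2 CPM of 13370 genes. Its divisor was inferred from counts and CPM and is taken here as total reads. Each AML12 library has deposited counts and a log2 table, which proved to be log2 of the count plus 1 and not CPM.

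For the tests here estimated counts were taken to whole numbers. A gene was kept if its geometric mean was above 1 count (offset 1e-04), as in the study. The quasi-likelihood test of edgeR 4.0.16 (R 4.3.3) was fitted to the 8 groups of 6 with the total count over kept genes as library size. Levels are CPM of the column total. To be a DEG a gene had to change at least 2-fold with a p under 0.05 after Benjamini-Hochberg adjustment. SEs are from the fit. AML12 counts were fitted with TMM scaling after the filterByExpr filter, which kept 1570 genes. Alternatives were TMM, DESeq2 1.42.0, total reads, limma 3.58.1 on the deposited log2 CPM, other filters, single L numbers, the mouse as a block and leaving out each mouse. The leave-outs under the block were chosen after seeing the data. The code was tested on simulated data.

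The 10 genes and the lists were chosen with earlier results of these data known. All 10 members are named, and from each list every DEG in FR and the 2 largest and 2 smallest log2 fold changes among genes of at least 1 CPM, beside genes that passed by adjusted p, which were added after their values were seen. Mice are separate animals, and no pair of replicate libraries agreed within sampling noise (smallest chi-square per degree of freedom 6.96). Libraries of the same mouse deviated from their group means together (median correlation 0.65 over 72 pairs, lowest 0.45, 7098 genes), and the mouse names in the labels give the pairing. Rat tables and columns of the authors' comparisons were not used.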

Additional observations from a re-analysis of the deposited data

Results flagged for a closer look

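Within each group of 6 libraries the highest and lowest values of every member were examined for a gap to the next library that was large against the range of the group (Dixon's criterion). Of 80 member and group pairs, 4 stood out, which is the number that chance gives at 1 in 20. Mouse 21C gave 3 of them, as the highest control: Gsta2 at 3.70 CPM in FR Con (next 1.09), Gsta2 at 2.61 CPM in FR > OH Con (next 0.638) and Gsta4 at 15.2 CPM in FR > OH Con (next 10.6). Mouse 8C gave the other, Gstm3 at 16.4 CPM in FR Con (next 10.4). Without 21C the log2 fold change of Gsta2 with PB was 3.83 in FR and 4.45 in FR > OH, and that of Gsta4 in FR > OH was 1.39. Without 8C the fold change of Gstm3 in FR was 6.32.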

How the results depend on the processing

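Of the PB log2 fold changes of single members over the alternatives, 766 kept their direction and their side of the threshold, 17 passed it newly, 7 no longer passed it, and none reversed. The 7 were Gstm6 in FR > FFPE under TMM and DESeq2 (both 0.99) and without 20D (0.94) or 8A (0.96), Gsta2 under limma in FR (adjusted p = 0.142) and in FR > FFPE (adjusted p = 0.256), and Gsta4 in FR among libraries with one L number (0.99). Leaving out each mouse gave 9 members called in FR and 9 to 10 in FR > OH, and 7 to 9 in each formalin preparation. The counts against FR depended on scaling. For FFPE against FR, 5 members were called under TMM and 5 under DESeq2, 9 under total reads, 9 under limma and 9 by adjusted p alone, against 1 in the reported fit. Of all genes, 11.7% were DEGs under TMM, 11.9% under DESeq2, 27.7% under total reads, 30.0% under limma and 14.9% in the reported fit. By adjusted p alone, 17.3% of all genes were lower and 53% higher. Leaving out each mouse gave 1 to 2 members without the block, with 2 without 8C (Gsta2 at -1.11) or without 8D (Gsta4 at -1.02). With the block the number was also 1 to 2, and 2 without 8C or 8D. For FR > FFPE against FR, 1 member was called under total reads, 1 under limma and 7 by adjusted p alone. For FR > OH against FR the numbers were 3, 3 and 7, against 0 in both reported fits. In FR > FFPE, 2.45% of all genes were DEGs under total reads, 2.498% under limma and 6.52% in the reported fit. In FR > OH these shares were 2.79%, 3.04% and 4.08%. By adjusted p alone, 8.92% of all genes were lower and 56.5% higher in FR > FFPE. In FR > OH, 13.3% were lower and 41.7% higher. Gstm4 reversed against FR under total reads (-0.65 in FFPE, -0.0488 in FR > FFPE, -0.0334 in FR > OH) and under limma (-0.65, -0.0608, -0.0397). The scaling itself moves the median of all genes, as given in the report. With the mouse as a replicate block the number of members called was 0 for each of the 3 differences between PB responses and 1, 0 and 0 against FR, and the block changed no other call by these criteria. Differences of PB responses gave 0 members in every leave-out. In AML12 cells leaving out each culture gave 0 to 1. Counts were few for Gsta2 in liver controls and for Gsta2 and Gstt3 in AML12 cells, which limits the precision of these values.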
